A study of Mus musculus with 24 samples.

Results

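MERVL and the genes that mark 2-cell-like cells were examined in the nuclear RNA of mouse embryonic stem (ES) cells with and without the m6A methyltransferase proteins Mettl14 and Mettl3. The set held 8 members, chosen by name: the repeat subfamilies MERVL-int and MT2_Mm, and the genes Zscan4c, Zscan4d, Zscan4e, Zscan4f, Tcstv1 and Tcstv3. The 2 repeat subfamilies are among 1153 that were counted only in the MeRIP-seq table, which held 49090 genes and repeat subfamilies in all, and the 6 genes are among 47937 that were counted in both tables. After edgeR's filter on low counts, 6 of the 8 members were among the 22621 features tested in MeRIP-seq, and 4 of the 6 genes were among the 17021 tested in RNA-seq. Tcstv1 and Tcstv3 passed in neither.

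WT26 is a wild type ES cell line of mixed 129/Sv and C57Bl6 background and the control of Mettl14 KO, which is 1 clone (A10) made from it with CRISPR/Cas9, with a frame-shifting deletion on both alleles. RBC is a line of the same mixed background with Rosa26 BirA-V5 and Cre-ERT2, wild type for Mettl3, and the control of Mettl3 KO, which is also 1 clone (2c4d) and carries the same insertions. Each line was sequenced in 2 biological replicates by RNA-seq of nuclear RNA (8 libraries) and by MeRIP-seq (16 libraries), in which nuclear RNA was sheared and an antibody to m6A pulled down the methylated fragments (IP), with the RNA before pull-down as input. All 4 lines were grown on gelatin with Serum Replacement and LIF, and since each knockout is a single clone, clone and genotype cannot be told apart.

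MERVL is an endogenous retrovirus whose internal part is called MERVL-int and whose long terminal repeat (LTR), the promoter of the element, is called MT2_Mm. It is transcribed in the mouse embryo at the 2-cell stage, when the embryo's own genome is first switched on, and a small and changing share of cultured ES cells pass through a state with the same transcripts. The factor DUX binds and activates MERVL LTRs and the Zscan4 genes, which encode zinc finger proteins with a SCAN domain that are known for telomere maintenance, and the Tcstv genes are transcribed in the same state. m6A is laid down by the complex of Mettl3, the catalytic subunit, and Mettl14, which holds the RNA, most often at the A of GGACT and related sequences.

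The 4 Zscan4 genes lie in 1 cluster on chromosome 7 and are near copies of each other, so their reads are hard to tell apart. In GRCm38 with the GENCODE M21 annotation, Zscan4c is at chr7:11005745-11010547 on the plus strand, Zscan4d at chr7:11161374-11166159 on the minus strand, Zscan4e at chr7:11306378-11310682 on the minus strand and Zscan4f at chr7:11397915-11402318 on the plus strand, each with 4 exons. Tcstv1 (chr13:119893388-119894785, minus strand) and Tcstv3 (chr13:120316878-120318178, plus strand) lie on chromosome 13. The coding sequences of Zscan4c and Zscan4f were 99.6% identical, and those of Zscan4c and Zscan4d 97.7%. Of all stretches of 75 bases, the read length, in the transcript of Zscan4d, 60.5% occurred in no other gene's transcripts, against 21.4% for Zscan4c, 12.6% for Zscan4e and 7.58% for Zscan4f. Zscan4d was thus the Zscan4 row that reads could be assigned to most clearly, and the values of Zscan4c, Zscan4e and Zscan4f, and which of them changed, are uncertain to the extent that reads were shared. A sum over the rows Zscan4b to Zscan4f is given beside them.

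Each Zscan4 transcript held GGACT once, in 1 coding exon, and the bases around it are shown. GGACT was the only form searched for. The wider motif RRACH (R for A or G, H for A, C or U) was not counted. Other matches to RRACH occur, such as gaaca within the stretches below, so GGACT is not the only candidate site. The stretch covers coding bases 593 to 653, the capitals mark the GGACT from coding base 621 on, and the bases were read from the GRCm38.p6 genome of RefSeq.
Zscan4c, chr7:11009068-11009128, plus strand: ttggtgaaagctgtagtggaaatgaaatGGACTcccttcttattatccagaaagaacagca
Zscan4d, chr7:11162789-11162849, minus strand: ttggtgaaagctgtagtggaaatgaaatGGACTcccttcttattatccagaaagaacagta
Zscan4e, chr7:11307291-11307351, minus strand: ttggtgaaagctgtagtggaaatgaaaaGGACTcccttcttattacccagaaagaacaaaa
Zscan4f, chr7:11401261-11401321, plus strand: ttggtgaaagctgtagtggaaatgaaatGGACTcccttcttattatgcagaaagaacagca
Compared with Zscan4c, the 61 bases differed at 1 position in Zscan4d, 1 in Zscan4f and 4 in Zscan4e, and the GGACT was the same in all. A match says nothing of whether the site is methylated.

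The promoters of the genes are shown because the rows Zscan4c to Zscan4f, which share reads, were lower together in both knockouts in RNA-seq. Zscan4b did not follow them in Mettl3 KO. A promoter in the RefSeq table was found for 3 of the 6 member genes (Zscan4c, Zscan4d, Zscan4f) and for the neighbour Zscan4b. The lines give the 250 bases before the start that RefSeq gives each gene in GRCm38.p6, which for Zscan4d is a few bases inside the GENCODE gene, and the capitals mark TATAAAA, the usual form of a core promoter element, and TGATTCAA, which belongs to the sequence known to be bound by DUX. Both were picked after the sequences had been seen, were searched on both strands and do not overlap each other.
Zscan4c, chr7:11005495-11005744, plus strand: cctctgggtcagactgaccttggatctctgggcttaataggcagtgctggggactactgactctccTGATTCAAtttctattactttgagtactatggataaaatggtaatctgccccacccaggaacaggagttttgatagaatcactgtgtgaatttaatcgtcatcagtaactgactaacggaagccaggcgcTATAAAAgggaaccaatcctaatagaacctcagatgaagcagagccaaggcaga
Zscan4d, chr7:11166149-11166398, minus strand: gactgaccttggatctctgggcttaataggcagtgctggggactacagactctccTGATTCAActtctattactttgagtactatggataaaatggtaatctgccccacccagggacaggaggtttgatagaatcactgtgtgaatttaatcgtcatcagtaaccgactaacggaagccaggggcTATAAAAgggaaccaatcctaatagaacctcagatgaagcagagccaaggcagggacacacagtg
Zscan4f, chr7:11397665-11397914, plus strand: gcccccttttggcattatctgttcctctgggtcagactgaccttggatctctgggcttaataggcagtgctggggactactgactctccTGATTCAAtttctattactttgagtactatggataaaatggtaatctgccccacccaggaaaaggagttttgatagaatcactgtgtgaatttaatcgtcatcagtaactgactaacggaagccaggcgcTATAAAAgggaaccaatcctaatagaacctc
Zscan4b, chr7:10905051-10905300, minus strand: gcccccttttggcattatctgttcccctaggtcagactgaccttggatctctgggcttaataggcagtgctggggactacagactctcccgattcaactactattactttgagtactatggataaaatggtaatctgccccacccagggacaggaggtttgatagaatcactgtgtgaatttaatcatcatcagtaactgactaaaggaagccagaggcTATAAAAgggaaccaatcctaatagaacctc
TATAAAA was found in all 4, at 54, 65, 31 and 31 bases before the start in Zscan4c, Zscan4d, Zscan4f and Zscan4b, and 4.98% of 32851 promoters of this length held it on either strand. TGATTCAA was found in Zscan4c, Zscan4d and Zscan4f, at 184, 195 and 161 bases before the start, against 0.539% of all promoters, and its letters were not in this window of Zscan4b.

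Depth and labels were checked first. RNA-seq libraries held 11321459 to 13743181 reads and MeRIP-seq libraries 9394163 to 28441282, and in every line the input of replicate 2 was shallower (9394163 to 14804156 reads) than the input of replicate 1 (19302923 to 22366463). The 8 ES cell markers, Pou5f1, Sox2 and Nanog among them, summed to 13985.7 to 23133.6 normalized counts per RNA-seq library, where a normalized count is a read count divided by the library's DESeq2 size factor. Mettl14 RNA in RNA-seq was at 400.6 and 357.5 normalized counts in WT26 and 296.5 and 315.6 in Mettl14 KO, and Mettl3 RNA at 927.7 and 978.9 in RBC and at 880 and 820.9 in Mettl3 KO. By edgeR, Mettl14 RNA differed by a log2 fold change of -0.31 in Mettl14 KO (adjusted p = 0.00609), and Mettl3 RNA by -0.16 in Mettl3 KO (adjusted p = 0.0588). The Mettl14 lesion is a small deletion, and most of the RNA of both genes was still present. The RNA levels of the targeted genes alone therefore do not check the labels.

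Zscan4 RNA was lower in both knockouts than in their controls. In the Mettl14 KO comparison, edgeR called 4 of the 4 tested Zscan4 genes lower, which took an adjusted p no higher than 0.05 with a log2 fold change below -1, against 6.57% of all 17021 genes tested, and none higher against 7.95%. In the Mettl3 KO comparison it called 3 of 4 lower, against 7.43% of all genes, and none higher against 6.15%. The counts behind these calls were low: a tested gene had a median of 181 normalized counts, and the highest Zscan4 value in any library was 52.4. Zscan4d was the row with at least 10 reads in every library. Zscan4c held 8 to 11 and Zscan4f 6 to 12 reads in the knockout libraries, near the filter's limit, so these rows, like Zscan4e, passed the filter through the controls, where they were high, and the counts of rows called describe the rows that passed and are not support of their own. With no filter, edgeR called the same 4 and 3 Zscan4 rows among 30626 genes.

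Zscan4d, the row with the most sequence of its own, was at 52.4 and 41.9 normalized counts in WT26, 15.0 and 11.7 in the Mettl14 KO line, 47.1 and 35.5 in RBC and 13.9 and 15.1 in the Mettl3 KO line. All 4 knockout libraries were below all 4 control libraries. The log2 fold change was -1.82 ± 0.296 (SE) for Mettl14 KO against WT26 (adjusted p = 5.2e-05, 95% interval -2.45 to -1.20) and -1.49 ± 0.299 for Mettl3 KO against RBC (adjusted p = 0.000393, -2.12 to -0.87). Zscan4d was the row that kept its call without any 1 library of the comparison, and by DESeq2, in both knockouts.

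Zscan4c was at 39.8 and 20.4 in WT26, at 8.0 and 8.8 in Mettl14 KO, at 28.7 and 13.8 in RBC, and at 9.6 and 8.1 in Mettl3 KO. Replicate 1 was far above replicate 2 in both controls, whereas the knockout libraries lay close together and below each control library. The log2 fold change was -1.86 ± 0.439 (adjusted p = 0.00179) in Mettl14 KO and -1.22 ± 0.471 (adjusted p = 0.0370) in Mettl3 KO. Without replicate 1 of WT26 the first was -1.27 (adjusted p = 0.0715). The second was -0.63 without replicate 1 of RBC (0.393), -1.35 without replicate 1 (0.0803) and -1.10 without replicate 2 of Mettl3 KO (0.112), -1.26 by DESeq2 (0.133) and -1.07 with library totals as the scale (0.0617), which raised every RNA-seq fold change of Mettl3 KO by 0.15, none of them called.

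Zscan4f was at 22.6 and 25.8 in WT26 and 7.0 and 11.7 in Mettl14 KO, and at 17.2 and 14.8 in RBC and at 7.0 and 6.0 in Mettl3 KO, again with no overlap between a knockout and its control. It differed by -1.35 ± 0.370 on the log2 scale (adjusted p = 0.00536) in Mettl14 KO and by -1.27 ± 0.437 (adjusted p = 0.0205) in Mettl3 KO. The first was not called without replicate 1 of Mettl14 KO (-1.03, adjusted p = 0.0736) or by DESeq2 (-1.37, 0.0958), and the second without any 1 of the 4 libraries of RBC and Mettl3 KO (-1.39 to -1.17) or by DESeq2 (-1.29, 0.148).

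Zscan4e, which GENCODE lists as protein coding, was the lowest of the tested rows, at 15.4 and 11.8 in WT26, 1.0 and 2.9 in the Mettl14 KO line, 5.7 and 7.9 in RBC and 3.5 and 0 in the Mettl3 KO line. Its WT26 libraries, with 17 and 11 reads, were the only ones above 8 reads, so it passed the filter on low counts through WT26, and a difference from WT26 was built into its selection. It differed by -2.72 ± 0.693 (adjusted p = 0.00313) in Mettl14 KO and by -1.82 ± 0.816 (adjusted p = 0.0694, not called) in Mettl3 KO, where it was called without replicate 1 of Mettl3 KO, which left a single library at 0 reads.

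**Figure D1:**
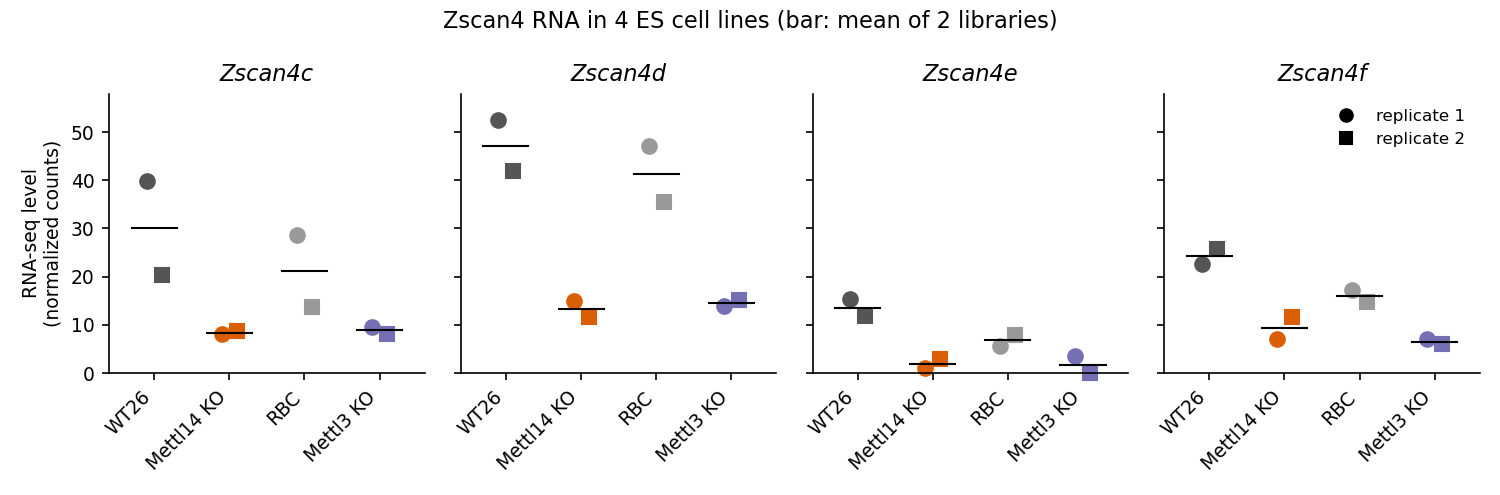
RNA-seq levels of Zscan4c, Zscan4d, Zscan4e and Zscan4f (y axis, normalized counts, linear from 0) in the 4 ES cell lines (x axis). Each symbol is 1 library (circle, replicate 1, and square, replicate 2) and each bar the mean of 2. In every panel both knockout libraries lie below both libraries of their control, with Zscan4d at 41.9 to 52.4 in WT26 and 11.7 to 15.0 in Mettl14 KO.

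Summed over the rows Zscan4b to Zscan4f, which sidesteps the question of which copy a read came from, RNA-seq gave 140.2 and 105.2 normalized counts in WT26, 101.2 and 73.9 in RBC, 32.0 and 40.9 in the Mettl14 KO line and 37.4 and 32.2 in the Mettl3 KO line. In that order, WT26 and RBC lay next to each other without overlap, and the 2 knockouts overlapped. Zscan4b, a part of the sum too low to be tested alone, was at 9.9 and 5.4 in WT26 and at 1.0 and 5.8 in Mettl14 KO, with overlap. It was at 2.3 and 2.0 in RBC and at 3.5 and 3.0 in Mettl3 KO, higher in the knockout but on too few reads to show a direction. The log2 fold change of the sum was -1.75 ± 0.217 (adjusted p = 2.6e-06) in Mettl14 KO and -1.31 ± 0.232 (adjusted p = 0.000119) in Mettl3 KO. RBC was below WT26 by -0.51 ± 0.189 (adjusted p = 0.0411), which is under the limit on fold.

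Among single rows the controls were not called different: 0 of the 4 Zscan4 genes passed between RBC and WT26 by edgeR or by DESeq2, where edgeR called 8.98% of all genes and 8015 genes had an unadjusted p under 0.05. The change in Mettl3 KO and the change in Mettl14 KO differed at an adjusted p of at most 0.05 for 0 of 4 by either tool, against 43.2% of all genes (8603 genes at an unadjusted p under 0.05). For Zscan4d the difference between the changes was 0.33, with a 95% interval of -0.60 to 1.26, and for the sum it was 0.44 (-0.25 to 1.14), intervals that reach beyond 1 log2 unit.

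Per kilobase of transcript, among the tested Zscan4 rows, Zscan4d had the highest mean and Zscan4e the lowest in each line, while the order of Zscan4c and Zscan4f varied. In WT26, Zscan4d was at 23.1 and 18.4 normalized counts per kilobase, Zscan4c at 17.5 and 8.96, Zscan4f at 12.4 and 14.1 and Zscan4e at 8.83 and 6.76, and Zscan4c and Zscan4f overlapped. In RBC, Zscan4c was at 12.6 and 6.06 and Zscan4f at 9.40 and 8.09, again overlapping. In Mettl14 KO, Zscan4f was at 3.83 and 6.40, which overlapped Zscan4d at 6.60 and 5.15 and Zscan4c at 3.51 and 3.87. In Mettl3 KO, Zscan4d was at 6.12 and 6.65, Zscan4c at 4.22 and 3.56 and Zscan4f at 3.83 and 3.28, the last 2 with overlap. These levels carry the same doubt about shared reads.

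Tcstv1 and Tcstv3 were close to undetected and could not be compared. In RNA-seq Tcstv1 was at 1.8 and 4.3 normalized counts in WT26, 0 and 0 in the Mettl14 KO line, 2.3 and 3.0 in RBC and 0.9 and 1.0 in the Mettl3 KO line. Tcstv3 was at 2.7 and 2.1, 1.0 and 1.0, 1.1 and 3.0, and 0.9 and 2.0 in the same order of lines. No library held more than 4 reads of either, and differences at this depth were not detectable.

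A list of other genes known as markers of 2-cell-like cells, written by hand with earlier results of these data known, was mostly too low to test. Of 45 listed genes 37 were in the table and only 7 passed the filter, several of them through the control lines alone, where they were highest, so a lower value in the knockouts was in part built into which genes were tested, and the counts are a description. In Mettl14 KO 4 of the 7 were called lower, where 6.57% of all genes were, and in Mettl3 KO 5 of the 7, where 7.43% were. None was called higher in either, and between RBC and WT26 none of the 7 was called, where 8.98% of all genes were.

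Gm5662 was at 19.9 and 39.7 normalized counts in WT26 and 11.0 and 6.8 in Mettl14 KO (log2 fold change -1.70, adjusted p = 0.00276), and at 19.5 and 19.7 in RBC and at 0.9 and 3.0 in Mettl3 KO (-3.31, adjusted p = 0.000304). Gm8300 was at 19.9 and 12.9 in WT26, 4.0 and 1.9 in Mettl14 KO (-2.44, adjusted p = 0.00303), 19.5 and 13.8 in RBC and at 3.5 and 0 in Mettl3 KO (-3.06, adjusted p = 0.00101). Neither gene's knockout and control libraries overlapped, but both genes passed the filter through the controls, so such a gap was in part built into their selection. Gm12794 fell by 1.82 in Mettl14 KO (adjusted p = 0.00206) and by 1.22 in Mettl3 KO (adjusted p = 0.0275), and Usp17lb, a gene for a deubiquitinating enzyme, fell by 2.19 (adjusted p = 0.00606) and 1.42 (adjusted p = 0.0246). Gm2016 fell by 2.75 in Mettl3 KO alone (adjusted p = 0.00416) and differed by -1.12 in Mettl14 KO (adjusted p = 0.112), a contrast between the knockouts for which none of the 7 passed the test of the difference. Tmem92 and Usp17le passed in neither. In the MeRIP-seq inputs 0 of 18 tested genes on the list were called in either knockout, where 0.398% and 0.752% of all features were. There Gm8300 was at 0.932 ± 1.097 in Mettl14 KO, the other direction, and at -1.155 ± 1.114 in Mettl3 KO. Gm5662 was at -0.987 ± 0.911 and -2.031 ± 1.099.

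Known regulators of the 2-cell-like state were called about as rarely as genes in general. Of 22 tested genes that hold the state back, such as Trim28, Setdb1, Kdm1a and the chromatin assembly factor genes Chaf1a and Chaf1b, 1 was called lower in each knockout and none higher, where 6.57% and 7.43% of all genes were called lower. By the adjusted p alone 17 of the 22 differed in Mettl14 KO, 5 upward and 12 downward, and 15 in Mettl3 KO, 6 upward and 9 downward. Small p-values were common: of all 17021 genes tested, 9807 and 9934 had an unadjusted p under 0.05, which is a looser limit. The share of all genes at an adjusted p of at most 0.05 is not given here, so these counts of regulators are a description. Setdb1, a histone methyltransferase, differed by -0.74 in Mettl14 KO and 0.16 in Mettl3 KO, and Trim28, its corepressor partner, by -0.54 and -0.74, each at an adjusted p no higher than 0.05. The gene called was Lin28a, which encodes an RNA-binding protein and was at 961.3 and 963.0 normalized counts in WT26 and 500.8 and 450.1 in Mettl14 KO (-1.02, adjusted p = 1.7e-09), and at 979.4 and 1045 in RBC and at 488.7 and 506.6 in Mettl3 KO (-1.03, adjusted p = 1.3e-09). Its knockout libraries were at about the same level in both lines and far from the controls. Of 5 genes known to promote the state, 4 were tested (Dppa2, Dppa4, Nelfa and Trp53) and none was called in either knockout, although Dppa4 differed by -0.25 (adjusted p = 0.00311) and -0.42 (adjusted p = 2.4e-05). The fifth, Duxf3, which encodes DUX, had at most 1 read in any RNA-seq library.

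Markers of other cells shifted too. In Mettl14 KO the primitive endoderm markers Gata4 (1.90, adjusted p = 0.000395), Gata6 (1.41, adjusted p = 0.000471) and Pdgfra (1.62, adjusted p = 3.0e-07) rose, 3 of the 4 on the list, where 7.95% of all genes were called higher. The list summed to 222.0 to 231.3 normalized counts, against 77.3 to 81.3 in WT26. In the MeRIP-seq inputs it summed to 144.4 and 126.4 in Mettl14 KO and to 49.4 and 169.7 in WT26, with overlap. No marker on the list was called there, where 0.124% of all features were called higher. In RNA-seq of Mettl3 KO the list summed to 40.8 to 55.4 against 65.1 to 79.2 in RBC, lower without overlap. None was called, with Pdgfra at -0.97 (adjusted p = 0.00313). The fourth, Sox17, had 1 to 9 reads per library. The 4 trophoblast markers summed to 332.3 to 333.5 in Mettl14 KO against 245.1 to 260.9 in WT26, and to 338.3 to 363.6 in Mettl3 KO against 281.0 to 281.7 in RBC, higher without overlap in both. None was called, with Tfap2c at 0.38 (adjusted p = 0.00214) and 0.32 (adjusted p = 0.00599), and Cdx2 and Elf5 had 0 to 5 reads. Among the ES cell markers 0 of 8 were called in Mettl14 KO and 1 in Mettl3 KO (Dppa5a, -2.03, adjusted p = 2.1e-14). Of all genes, 14.5% and 13.6% were called in either direction. All 8 markers differed at an adjusted p of at most 0.05 in each knockout, 8 downward in Mettl14 KO and 7 in Mettl3 KO. Of all 17021 genes tested, 9807 and 9934 had an unadjusted p under 0.05, a looser limit. With no share of all genes at the adjusted limit beside them, these counts of markers are a description. The part of these marker shifts in the Zscan4 result was not tested, and in bulk RNA fewer cells of a type and less RNA per cell cannot be told apart.

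MERVL RNA in the inputs showed no such difference. MERVL-int, the internal part of the element, was at 15550.5 and 19954.3 normalized counts in WT26, 15338.9 and 20233.4 in the Mettl14 KO line, 16369 and 18902 in RBC and 15886.6 and 19905.5 in the Mettl3 KO line. The lines overlapped fully, and what separated the libraries was the replicate number: every input of replicate 2 was above every input of replicate 1, which held for 1.91% of all tested features. The log2 fold change was 0.00 ± 0.432 (95% interval -0.92 to 0.93, adjusted p = 1) in Mettl14 KO and 0.02 ± 0.432 (-0.91 to 0.95, adjusted p = 0.999) in Mettl3 KO, intervals that reach to changes of nearly 2-fold. This fit counts the difference between the replicate numbers as spread. With the number as a replicate block within each kind of library, an alternative added after the data had been seen, MERVL-int was at 0.00 (-0.37 to 0.37) in Mettl14 KO and 0.01 (-0.36 to 0.38) in Mettl3 KO.

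MT2_Mm, the LTR, was at 6722.8 and 7879.4 in WT26, 7153.4 and 8418.3 in the Mettl14 KO line, 7041.8 and 7946.5 in RBC and 7505 and 8539 in the Mettl3 KO line, with the same split by replicate number. It differed by 0.09 ± 0.293 (-0.54 to 0.72, adjusted p = 0.987) and by 0.10 ± 0.293 (-0.53 to 0.73, adjusted p = 0.957). Both repeat rows sum the reads of all copies of a subfamily in the genome, so they have no single position, and a change at a few copies could be hidden in them. Each held far more reads than a typical tested feature, whose median was 96.5 normalized counts.

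**Figure D2:**
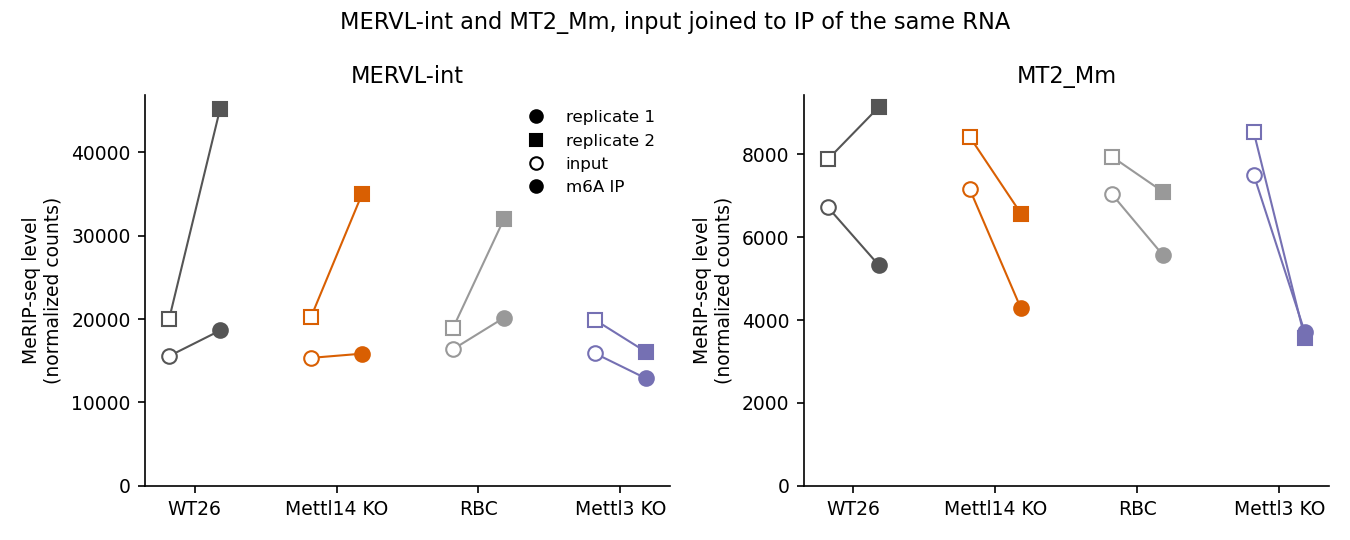
MERVL-int (left) and MT2_Mm (right) in MeRIP-seq (y axes, normalized counts, linear from 0) by line (x axis). Open symbols are inputs and filled symbols m6A IPs, circles are replicate 1 and squares replicate 2, and a line joins the input and IP of the same RNA. Inputs lie in 2 tight levels set by the replicate number, at 15338.9 to 16369 and 18902 to 20233.4 normalized counts for MERVL-int, and the IP falls below the input in both pairs of Mettl3 KO in both panels.

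The Zscan4 rows were also measured in the inputs, with fewer reads. Their sum was 122.6 and 213.5 normalized counts in WT26, 25.1 and 94.7 in the Mettl14 KO line, 104.5 and 49.2 in RBC and 36.3 and 33.7 in the Mettl3 KO line, from 21 to 156 reads per library. Knockout libraries were below those of their own control without overlap, though how often this occurs among all features was not counted. The log2 fold change of the sum was -1.57 ± 0.706 (adjusted p = 0.447) in Mettl14 KO and -1.13 ± 0.724 (adjusted p = 0.631) in Mettl3 KO. Both had the same sign as in RNA-seq and a like size, without passing the test. The controls differed by about as much as Mettl3 KO and RBC, with RBC against WT26 at -1.11 ± 0.674 (adjusted p = 0.829). The input values alone thus do not set the knockouts apart from a difference between control lines.

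By row, Zscan4f was at 54.2 and 101.4 in WT26 and 15.2 and 16.8 in Mettl14 KO (-2.27, adjusted p = 0.167), and Zscan4c at 18.9 and 48.5 and at 1.8 and 12.6 (-2.50, adjusted p = 0.380). Zscan4d was at 26.7 and 33.3 in WT26 and at 3.6 and 40.0 in Mettl14 KO, so that 1 knockout library was above both controls. In Mettl3 KO the 4 Zscan4 log2 fold changes ran from -2.27 (Zscan4e) to -0.57 (Zscan4f). None of the 6 tested members was called by edgeR, in Mettl14 KO against 0.398% of all features (2389 of 22621 with an unadjusted p under 0.05), in Mettl3 KO against 0.752% (2638) and between RBC and WT26 against 0.584% (1838). DESeq2 called 1 member in Mettl14 KO, Zscan4f (-2.28, adjusted p = 0.0341), beside 150 features higher and 218 lower of its 19079, and no member in the other comparisons. The spread between replicates was wider here than in RNA-seq, with a biological coefficient of variation of 0.273 against 0.0625.

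**Figure D3:**
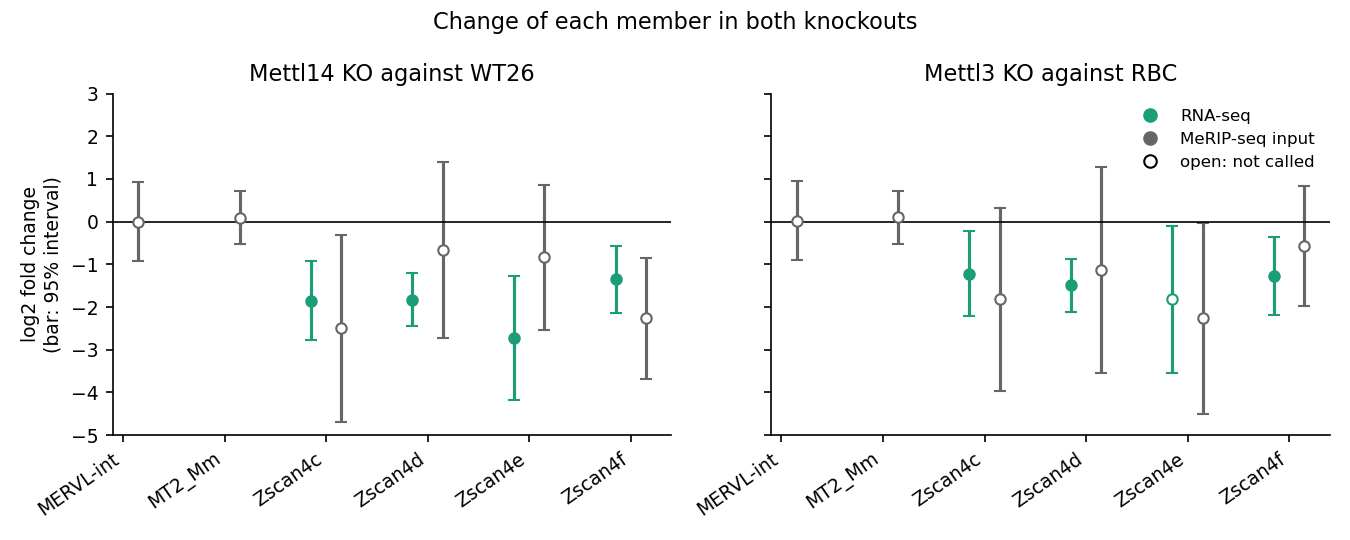
Log2 fold changes (y axis) of the tested members (x axis) in Mettl14 KO against WT26 (left) and in Mettl3 KO against RBC (right), from RNA-seq (green) and MeRIP-seq inputs (grey), with 95% intervals from edgeR's fit. Filled symbols passed the call and open ones did not. MERVL-int and MT2_Mm lie at 0.00 to 0.10, and the Zscan4 rows lie below 0 in both assays, with wider intervals in the inputs.

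In the m6A IP, the Zscan4 rows were above their input in every pair. Zscan4c, Zscan4d, Zscan4e and Zscan4f each had a higher normalized count in the IP than in the input of the same RNA in 8 of 8 pairs, knockouts included, a pattern seen in 24.1% of all tested features, whereas MERVL-int was above its input in 6 of 8 pairs and MT2_Mm in 1 of 8. For the Zscan4 sum the ratio of IP to input was 2.49 and 3.14 in WT26, 2.92 and 3.44 in the Mettl14 KO line, 2.07 and 3.35 in RBC and 1.99 and 3.33 in the Mettl3 KO line. The ratios of the knockouts and the controls overlapped. The Zscan4 rows share reads, so their patterns are not separate observations. Some knockout inputs were near the floor, such as Zscan4e at 1.8 and 1.6 normalized counts in Mettl3 KO. Since counts were normalized within the table, a ratio is relative to the bulk of the features and not an absolute degree of methylation.

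In tests of each line, few of these rows passed. In WT26 1 of 6 members was enriched (log2 fold change above 1, adjusted p no higher than 0.05), against 14.5% of features: Zscan4e at 10.2 and 21.2 normalized counts in the input and 47.8 and 91.8 in the IP (2.20 ± 0.656, adjusted p = 0.0225), a call that was lost without either input (1.70 and 2.75) and without replicate 2 of the IP (1.67). With the input and IP of the same RNA as a replicate block, 4 of 6 were enriched in WT26, Zscan4c by 1.75 (adjusted p = 0.0157), Zscan4d by 1.34 (0.0434), Zscan4e by 2.16 (0.0143) and Zscan4f by 1.21 (0.0332). In RBC 0 of 6 were enriched by edgeR, against 13.4%, with 9807 features at an unadjusted p under 0.05, and 2 of 6 were with the replicate block, Zscan4e by 1.89 (adjusted p = 0.0235) and Zscan4f by 1.21 (0.0486). The shares of 14.5% and 13.4% belong to the fits without the block. The shares of all features with it are not given here, so the counts of members with the block are a description.

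In Mettl14 KO 2 of 6 were enriched, against 11.9% of features: Zscan4c at 1.8 and 12.6 normalized counts in the input and 15.7 and 87.6 in the IP (3.11 ± 0.996, adjusted p = 0.0360), and Zscan4f at 15.2 and 16.8 and at 30.8 and 127.2 (2.27 ± 0.662, adjusted p = 0.0257). Both kept their call with the replicate block, at 2.87 (0.0197) and 1.89 (0.0239), and both lost it without either input or without replicate 2 of the IP, at 1.48 to 4.70 for Zscan4c and 0.97 to 2.32 for Zscan4f. In Mettl3 KO 0 of 6 were enriched, against 2.54% of all features (5803 with an unadjusted p under 0.05), and Zscan4e had the highest value, 2.69 ± 0.979 (adjusted p = 0.111), on 1.8 and 1.6 normalized counts in the input and 13.0 and 10.4 in the IP. The share of all features called enriched was itself lowest in Mettl3 KO, so the count of members is read against it.

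MERVL-int was at 18625.7 and 45239.4 normalized counts in the IP of WT26, 15843.9 and 35003.3 in the Mettl14 KO line, 20157 and 32011.6 in RBC and 12875.5 and 16060.9 in the Mettl3 KO line. The ratios of IP to input were 1.20 and 2.27 in WT26, 1.03 and 1.73 in the Mettl14 KO line, 1.23 and 1.69 in RBC and 0.810 and 0.807 in the Mettl3 KO line. Replicate 2 was the higher in 3 of the 4 lines, and Mettl3 KO was the line in which both IPs were below their inputs. None of the 4 lines passed the test: the log2 fold change was 0.85 ± 0.435 in WT26 (adjusted p = 0.142), 0.52 ± 0.433 in Mettl14 KO (0.381), 0.57 ± 0.434 in RBC (0.329) and -0.31 ± 0.433 in Mettl3 KO (0.688). Without replicate 1 of the WT26 IP the first was 1.35 (0.0249) and called. Library totals as the scale raised every ratio of IP to input by 0.38 to 0.46 on the log2 scale, and MERVL-int was then enriched in WT26 (1.25, 0.0326) and at 0.08 in Mettl3 KO.

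The LTR was not enriched. The ratio of IP to input for MT2_Mm was 0.791 and 1.16 in WT26, 0.598 and 0.781 in the Mettl14 KO line, 0.791 and 0.893 in RBC and 0.493 and 0.417 in the Mettl3 KO line. It was lowest in Mettl3 KO, where both ratios were below those of the other 6 pairs. There MT2_Mm was depleted, at -1.14 ± 0.297 (95% interval -1.78 to -0.51, adjusted p = 0.0433), the 1 member of 6 called depleted in any line, where 1.86% of features were. In WT26 (-0.01, adjusted p = 0.977), Mettl14 KO (-0.52, 0.193) and RBC (-0.24, 0.545) it was not, with values of 0.40 in WT26 and 0.21 in RBC on the scale of library totals, and depletion was called for 13.5%, 9.91% and 11.1% of features. The call in Mettl3 KO was lost without any 1 of its 4 libraries (-1.23 to -1.05) and with library totals as the scale (-0.76).

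**Figure D4:**
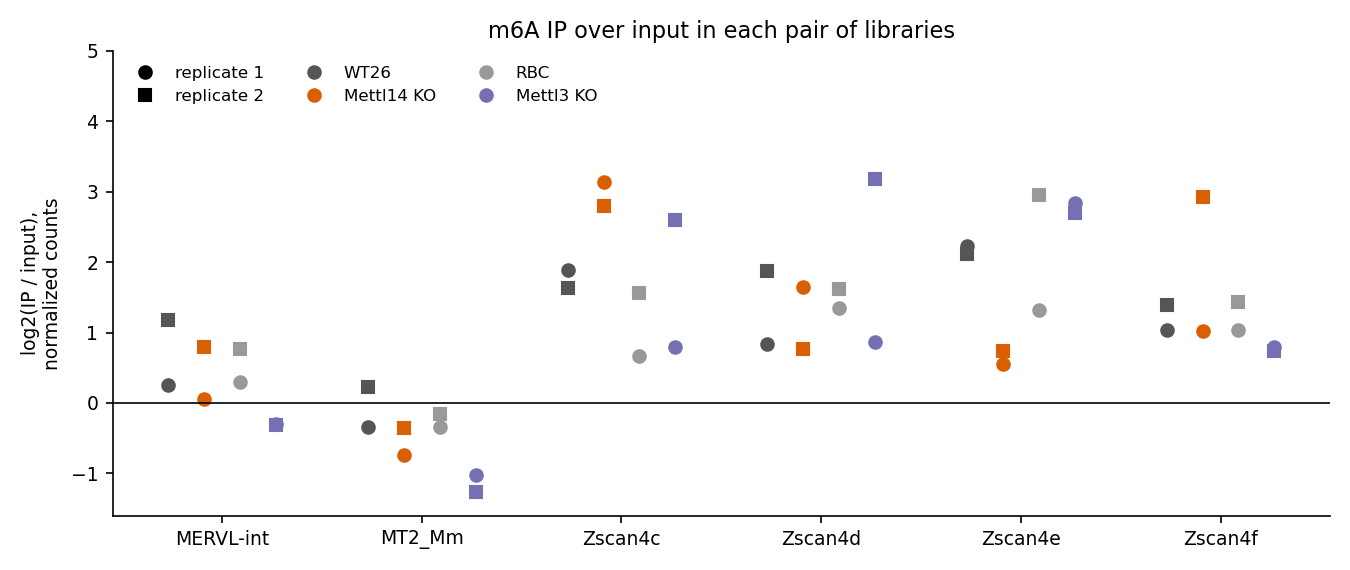
Log2 ratio of m6A IP to input (y axis, from normalized counts) for the 6 tested members (x axis) in each of the 8 pairs of libraries of the same RNA. Colour gives the line, circles are replicate 1 and squares replicate 2. The Zscan4 rows lie above 0 in all 8 pairs, MERVL-int below 0 in both Mettl3 KO pairs, and MT2_Mm above 0 in 1 pair of WT26 alone.

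Whether enrichment changed with the knockout was tested as the difference of the log2 ratios between a knockout and its control. No member was called, and neither was any other feature: edgeR called 0% of 22621 features in Mettl14 KO, with 126 at an unadjusted p under 0.05, and 0% in Mettl3 KO, with 787, while DESeq2 called 1 feature, not a member, and 0. In Mettl3 KO the difference was -0.87 for MERVL-int (95% interval -2.18 to 0.44, adjusted p = 0.854) and -0.90 for MT2_Mm (-1.79 to -0.01, unadjusted p = 0.0478, adjusted p = 0.854). In Mettl14 KO it was -0.33 for MERVL-int (-1.64 to 0.98) and -0.51 for MT2_Mm (-1.40 to 0.38), and for the Zscan4 sum it was 0.26 (-1.76 to 2.28) in Mettl14 KO and 0.07 (-1.97 to 2.12) in Mettl3 KO. These intervals leave room for a 2-fold change either way for the Zscan4 sum and for a 2-fold decrease for both MERVL rows.

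When the replicate number was taken as a block within each kind of library in the same way, the differences in Mettl3 KO were -0.81 for MERVL-int (-1.34 to -0.29, adjusted p = 0.125) and -0.87 for MT2_Mm (-1.35 to -0.39, adjusted p = 0.118), closer bounds that still did not pass the adjustment over all features.

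Repeats related to MERVL were set beside it from a list of 12, MERVL_2A-int, older MT2 LTRs and the MaLR families MTA and ORR1A, all tested. In the inputs 0 of 12 were called in either knockout. In the IP of WT26 3 were enriched, the internal parts ORR1A0-int (1.80), MTA_Mm-int (1.20) and ORR1A1-int (1.10), where 14.5% of all features were, and 4 depleted, where 13.5% were, the LTRs MT2B (-1.36), MT2B1 (-1.23), MT2A (-1.12) and MTA_Mm (-1.10). Internal parts thus lay above LTRs in the MaLR families as MERVL-int lay above MT2_Mm, although MERVL_2A-int was at -0.89. In Mettl14 KO the counts were 2 enriched and 4 depleted, in RBC 2 and 4, and in Mettl3 KO none of either, a line in which only 2.54% and 1.86% of all features were called and ORR1A0-int was at 1.38 (adjusted p = 0.0559). Of 18 tested genes on the 2-cell list, 2 were enriched in WT26, Gm8300 (3.13) and Gm8994 (2.04), a share near the 14.5% of all features, and 0 in Mettl14 KO, RBC and Mettl3 KO.

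By Pearson correlation of log2(normalized count + 1) over the 8 RNA-seq libraries, the genes most like the Zscan4 sum, among 15851 compared, were Taf12 (r = 0.993), Sema4b (0.988), Arhgap1 (0.987), Taok2 (0.984) and Platr9 (0.983). Taf12, for a subunit of the general transcription factor TFIID, was at 195.3 and 180.4 in WT26, 183.9 and 167.6 in RBC, 128.2 and 139.3 in the Mettl14 KO line and 133.9 and 122.9 in the Mettl3 KO line, the same order of controls over knockouts. For MERVL-int over the 8 inputs, among 19470 features, they were Rpl36a-ps2 (0.988), Gm13192 (0.979), Gm10263 (0.978), Rps27a-ps2 (0.977) and Gm28901 (0.974), of which at least Rpl36a-ps2 and Rps27a-ps2 are named as ribosomal protein pseudogenes. The 8 points share 4 lines and, for the inputs, the split by replicate number, so these values are descriptions.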

How the data were processed

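RNA-seq (8 libraries) and MeRIP-seq (8 inputs and 8 IPs, each replicate combined from 3 reactions) of nuclear RNA covered 4 ES cell lines, with 2 replicates a line. The authors deposited raw counts of reads on genes, and in the MeRIP-seq table also on repeat subfamilies. MeRIP-seq reads had been trimmed (cutadapt 1.8.1) and mapped by the authors to GRCm38 (STAR 2.6.0c), keeping reads with up to 100 positions, and repeats had been counted with TEtranscripts in its multi mode, which shares such reads among copies. For RNA-seq the counting tool, and for both tables the gene annotation release and the treatment of reads that match several genes, are not given for these tables in the sources used here; the study's methods describe, for transcripts outside repeats, a separate alignment of MeRIP-seq reads limited to 1 position, without tying it to the deposited gene rows. Samples were grouped by their labels and 0 columns were left over.

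Counts were tested in R 4.3.3 with edgeR 4.0.16 (glmQLFit and glmQLFTest), size factors of DESeq2 1.42.0, filterByExpr and Benjamini-Hochberg adjustment over all features tested, in 1 fit of all libraries of a table. Every adjusted p comes from these fits unless DESeq2's Wald test is named. P-values measure the spread between 2 replicates of 1 clone or line. How often the 2 libraries of a knockout and the 2 of its control fail to overlap among all features was not counted. Such gaps are therefore descriptions. A call took an adjusted p no higher than 0.05 with an absolute log2 fold change above 1, and a difference of changes the same p alone. The self-tests ran on simulated counts. Gene models, identities and the 75-base stretches came from GENCODE M21 and the GRCm38.p6 genome, promoters from RefSeq (Python 3.11.15, biopython 1.88, matplotlib 3.10.9).

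Input and IP of 1 line and number come from the same RNA, and their deviations from the group means correlated at 0.195 to 0.280, so a block on these pairs was fitted too. Between lines the labels tie the numbers to nothing shared, but deviations of the same number also correlated, at 0.251 to 0.452 among inputs and 0.598 to 0.806 among IPs (-0.172 to 0.453 in RNA-seq), and with 2 numbers that does not establish a pairing.

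The members and lists were chosen with earlier results of these data known. Named are the 8 members, list genes called in a knockout comparison, and the 5 features most like the Zscan4 sum and MERVL-int (mean of at least 10 normalized counts). Listed repeats and genes enriched in WT26, Gm8994 and ORR1A0-int in Mettl3 KO among them, Zscan4b, Sox17, Cdx2, Elf5, Tfap2c, Tmem92, Usp17le and regulators given as examples were named after their values were seen. Alternatives were TMM factors, library totals, size factors from genes alone, DESeq2, no filter, 10 or more counts per library, a call by adjusted p without the fold, the compared libraries alone, replicate blocks, summed families and leaving out each replicate; a replicate block within each kind of library was chosen after seeing the data.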

Additional observations from a re-analysis of the deposited data

How the results depend on the processing

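With 2 replicates a group and few reads on the Zscan4 rows, calls of single rows depended on the settings more than their directions did. Of the 4 members called in RNA-seq of Mettl14 KO, 1 of 1 was called with a minimum of 10 counts in every library and 1 of 1 with the family summed. In Mettl3 KO, where 3 were called, DESeq2 called 1, the minimum of 10 counts 1 of 1, the summed family 1 of 1, and leaving out a library 1 to 2. The block on the replicate number, which pairs nothing but numbers between lines, left 4 and 3 called. For the inputs of Mettl14 KO, 1 was called by DESeq2, 2 without a filter, 1 with only the libraries compared and 1 with the replicate block within each kind of library. For IP over input in WT26, where 1 was called, 4 were with library totals, 4 without a filter, 0 with the minimum of 10 counts, 3 with only the libraries compared, 4 with the replicate block of input and IP pairs, 3 with the block within each kind of library, 0 with summed families and 0 to 3 without 1 library. In Mettl14 KO 0 were called with the minimum and with summed families, and 0 to 2 without 1 library. In RBC the count went from 0 to 2 with library totals, 3 without a filter, 1 with only the libraries compared, 2 with the block of pairs and 2 with the block within each kind. In Mettl3 KO it went from 0 to 1, 3, 1 and 1 with library totals, no filter, only the libraries compared and the block within each kind. The cause was not tested. The share of all features called under each setting is not given beside these counts, so they are a description of the members. Library totals raised the ratio of IP to input of every feature, by 0.38 to 0.46 on the log2 scale.

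Signs turned where values lay near 0, none of them called. In the inputs MERVL-int in Mettl14 KO was at -0.03 with TMM, -0.02 with library totals, -0.02 with only the libraries compared, -0.00 with the replicate block and -0.21 to 0.19 without 1 library, and in Mettl3 KO at -0.01 with TMM and -0.15 to 0.17 without 1 library. In the inputs of Mettl14 KO, MT2_Mm ranged from -0.03 to 0.21 and Zscan4d from -3.01 to 0.43. For IP over input, library totals gave 0.40 and 0.21 for MT2_Mm in WT26 and RBC and 0.08 for MERVL-int in Mettl3 KO, and leaving out 1 library gave -0.45 to 0.33 for MT2_Mm in WT26, and -0.15 to 0.98, -0.71 to 3.35 and -0.32 to 1.66 for MERVL-int, Zscan4d and Zscan4e in Mettl14 KO. The change of IP over input without 1 library ranged in Mettl14 KO from -1.02 to 0.46 for MERVL-int, -0.29 to 2.96 for Zscan4c, -2.23 to 1.86 for Zscan4d and -0.34 to 1.74 for Zscan4f, and in Mettl3 KO from -0.06 to 1.33 for Zscan4c, -0.26 to 1.27 for Zscan4d and -0.33 to 1.47 for Zscan4e. Under the alternatives, 681 of the single log2 fold changes kept direction and side of the threshold, 34 turned sign, 27 lost a call and 37 gained one. Where an arm was left with 1 library, it was assumed to vary like the other groups.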

Other observations

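Other markers of the 2-cell-like state were too low to test in RNA-seq. Zfp352, a zinc finger gene transcribed at the 2-cell stage, had 6 and 2 reads in WT26, 0 and 1 in the Mettl14 KO line, 6 and 3 in RBC and 1 and 0 in the Mettl3 KO line. Duxf3 had at most 1 read in each RNA-seq library, and in MeRIP-seq it had 5 and 12 reads in the IPs of WT26 against 4 and 0 in its inputs. At these depths no difference was detectable.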
